A study of Mus musculus with 4 samples.

Results

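The genes described here are 33 genes of base excision repair (BER) and nucleotide excision repair (NER), taken by name from a fixed list out of the 25683 genes in a mouse testis RNAseq table. They comprise 22 BER genes and 11 NER genes, all 33 were found in the table, and all passed the filter on low counts. The study examined what remains of *Parp1* expression in mice that carry a knockout allele of this gene. It sequenced poly(A)-selected testis RNA in 2 libraries of *Parp1* knockout and 2 of control mice. The knockout allele is the 129S-Parp1tm1Zqw/J allele, which has a neo cassette in exon 2 and had been crossed to C57Bl/J for several generations, and the control mice were wild type (WT). No treatment is named, and neither the age of the mice nor the number of mice behind a library is given in the sources used here. PARG29b, in the paper the name of a hypomorphic *Parg* allele in ES cells, stands in the titles given to both knockout samples, but their genotype label, the series title and the paper name *Parp1*. The columns of the knockout libraries are headed alike, so these libraries are called the knockout library with more reads and the knockout library with fewer reads.

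BER removes small base lesions. A DNA glycosylase cuts out the damaged base, an AP endonuclease cuts the backbone at the empty site, DNA polymerase beta or a replicative polymerase fills the gap, and a ligase seals it. NER removes bulky lesions such as those made by ultraviolet light, which are found either by the XPC and DDB complexes anywhere in the genome or by a stalled RNA polymerase, opened by TFIIH and cut out by a pair of nucleases. PARP1 binds the strand breaks that arise during BER and makes poly(ADP-ribose), which recruits the scaffold protein XRCC1 with its partners. Male germ cells are known to carry out BER, and oxidised bases and strand breaks in sperm DNA are a recognised concern in this tissue.

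The libraries held 21821073 and 18103863 exon reads in the knockout and 20449210 and 23503503 in the control. *Parp1* was measured at 24.1 and 22.1 CPM (reads scaled to a common library size by the TMM method) in each of the knockout libraries, against 86.4 and 86.0 CPM in the control libraries. Its log2 fold change was -1.90 (SE 0.10, 95% interval -2.16 to -1.64), with a Benjamini-Hochberg adjusted p of 0.0126 in the quasi-likelihood test of edgeR. The adjusted p became 0.0708 without control 1 and 0.0580 without control 2. *Parp1* mRNA thus stood at 26.8% of the control level, so the allele left transcript in both knockout libraries. *Parg* was at 37.5 and 46.3 CPM in the knockout, against 37.2 and 35.95 CPM in the control (adjusted p = 0.845 by the same edgeR test). The summed level of 6 elongating spermatid markers was 73608 TPM (reads scaled by exon length and library size) in the larger knockout library (more reads) and 40709 TPM in the smaller one, against 61933 and 63673 TPM in the control. That of 6 Leydig cell markers was 2310 and 7920 TPM in the knockout, against 2847 and 3555 TPM in the control, but most of it came from *Insl3* (1947 and 7301 TPM in the knockout, against 2305 and 2865 TPM in the control), of whose reads 59.0% and 56.3% were uniquely placed in the control. The sum of the other 5 Leydig cell markers was 364 and 618 TPM in the knockout, against 542 and 689 TPM in the control. In this sum the smaller knockout library lay between the controls, but 3 of the 5 markers lay above both controls in that library. In the larger knockout library all 5 lay below both controls. In the elongating spermatid markers the knockout libraries lay on opposite sides of the controls, and 0 genes of either list passed the test. In RNA from whole testis, fewer cells of a type and less RNA per cell cannot be told apart.

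None of the 33 repair genes passed the threshold of 0.05 on the adjusted p in edgeR's quasi-likelihood test, where 0.0947% of the 15834 genes tested did (0.0126% of all genes higher and 0.0821% lower in the knockout). The smallest adjusted p among the repair genes was 0.239, for *Tdg*. At an unadjusted p under 0.05 there were 3, *Tdg*, *Ercc5* and *Pcna*, all with lower values in the knockout, beside 7.79% of all genes tested (3.57% higher and 4.23% lower). DESeq2 called 0 and limma voom 0 of the repair genes, and edgeR's likelihood ratio test called 1, *Tdg*, beside 2.36% of all genes. The median log2 fold change of the 33 genes was -0.07, against 0.01 for all genes tested, and single genes lay between -1.12 and 0.25. It was below 0 for 22 of the 33 genes, as it was for 48.4% of all genes. The genotypes did not overlap, with both knockout libraries above or both below the controls, for 16 genes or 48.5%, beside 37.1% of all genes tested. Of these, 13 were lower in the knockout (19.2% of all genes were) and 3, *Tdp1*, *Ogg1* and *Ercc6*, were higher (17.9% of all genes were). The count of repair genes without overlap depended on the scaling. It was 13 in TPM and 19 in CPM scaled by library totals only, where the share of all genes is not given here. An exact two-sided permutation test of 2 libraries against 2 cannot give a p below 0.333, so for a single gene a separation of this kind is a description.

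**Figure D1:**
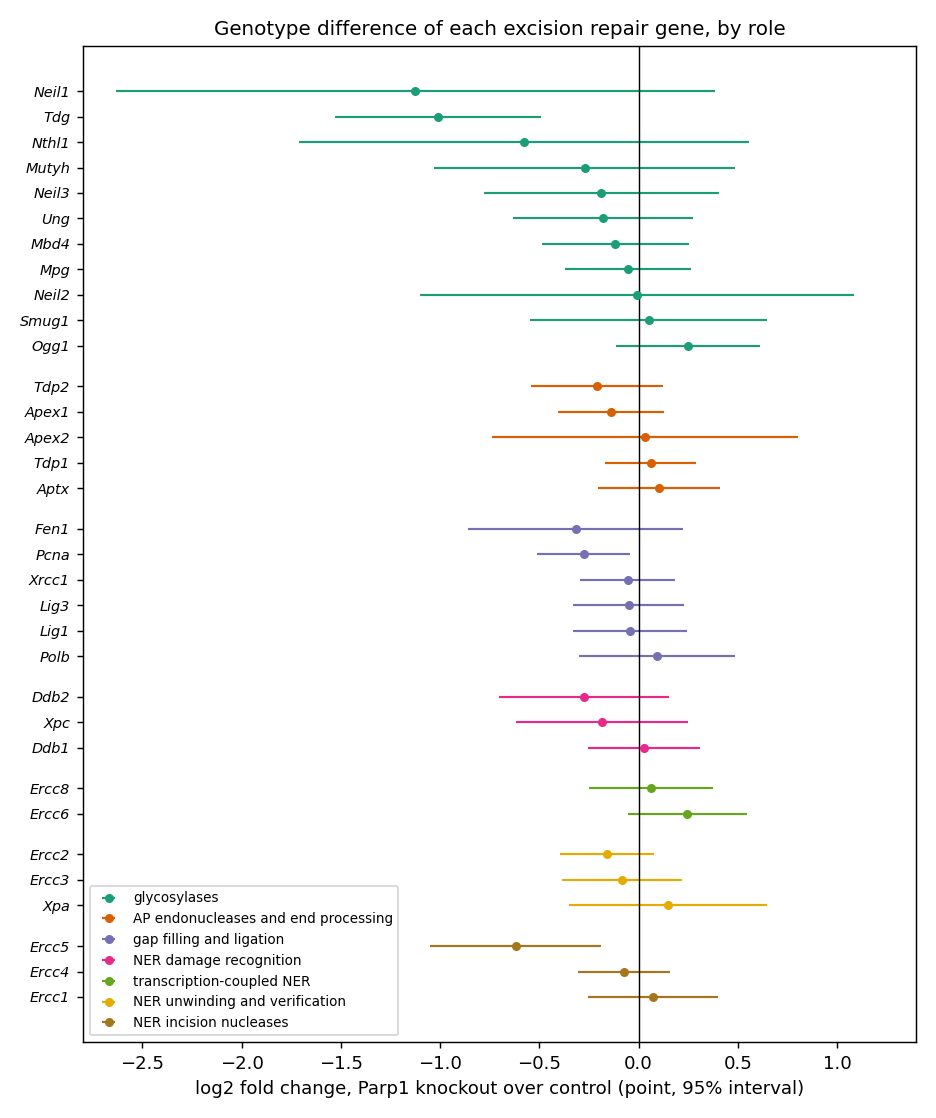
Log2 fold change of the 33 repair genes (points, *Parp1* knockout over control) with 95% intervals (lines) from edgeR's quasi-likelihood test, grouped and coloured by role. Only the intervals of *Tdg*, *Ercc5* and *Pcna* leave out 0, and none of these genes passed the test after adjustment over all genes.

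Levels of different genes were compared per length, as TPM. In the control libraries the order ran from *Ddb1*, with 234 and 223 TPM, to *Apex2*, with 0.503 and 0.520 TPM. *Pcna* was second with 167 and 165 TPM, and *Lig3* came next with 104 and 101 TPM. These ranges did not overlap between *Ddb1*, *Pcna* and *Lig3*, whereas *Lig3* and *Tdp1* (101 and 96.7 TPM), *Apex1* (49.95 and 47.3 TPM) and *Aptx* (47.7 and 44.8 TPM), and *Ercc1* (30.7 and 26.03 TPM) and *Ercc4* (27.8 and 27.5 TPM) overlapped with their neighbour in the order. The median level of all genes tested was 12.2 TPM. Genes from *Ddb1* down to *Mpg* (14.0 and 14.4 TPM) were above it, and all of the glycosylases other than *Ogg1* and *Mpg* were below it. Summed over the 33 genes the level was 1084 and 1256 TPM in the knockout, against 1255 and 1211 TPM in the control.

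**Figure D2:**
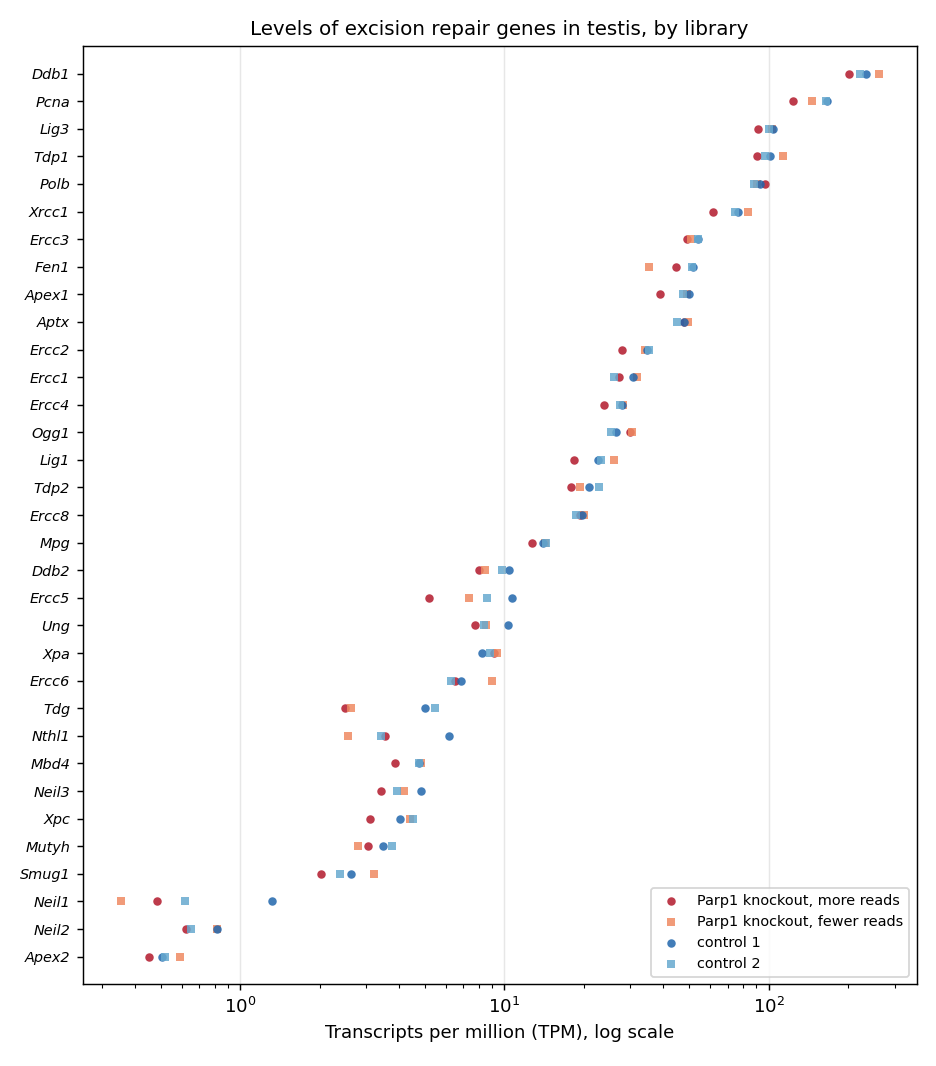
Level of each repair gene in each library in TPM (log axis), ordered by the control mean. The genes span from 201 to 261 TPM for *Ddb1* to under 1 TPM for *Apex2*, and for most of them the 4 libraries lie close together relative to that span.

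Glycosylases choose which lesion enters BER. The 11 glycosylase genes had a median log2 fold change of -0.18, with values below 0 for 9. In CPM, 5 were lower and 1 was higher in both knockout libraries than in either control library. Of all genes tested 19.2% and 17.9% were lower and higher in this way. Some of the 5 were near ties, with the nearest knockout and control libraries at 2.617 and 2.620 CPM for *Mutyh* and 4.15 and 4.22 CPM for *Neil3*. Another of the 5, *Neil1*, had 22 reads at most. *Tdg* encodes thymine DNA glycosylase, which removes thymine from G:T mismatches and oxidised 5-methylcytosine. It had 90 and 72 reads in the knockout libraries, against 162 and 205 in the control libraries. This corresponded to 4.44 and 3.75 CPM in the knockout, against 7.86 and 8.66 CPM in the control, so both knockout libraries were well below both controls. The log2 fold change was -1.01 (SE 0.21, 95% interval -1.53 to -0.49), which is 49.7% of the control level, with an adjusted p of 0.239 by edgeR's quasi-likelihood test. In the 11 alternatives that kept all libraries the adjusted p of *Tdg* lay between 0.00781 (edgeR's likelihood ratio test) and 0.420.

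*Tdg* lies on the plus strand at chr10:82629828-82650799 (GRCm38) and has a processed pseudogene, *Tdg-ps*, at chr15:82516311-82519278, whose reads were not analysed here. The copy matched 1246 of the 1263 coding bases of *Tdg* (98.7%), and 41.2% of the 50-base words of *Tdg* transcripts also occurred in transcripts of other genes. A stretch of 90 bases, coding bases 63 to 152, is shown to make clear how alike the 2 can be. It was chosen as the first stretch with the fewest differences among those with any, and is shorter than the 150 bp reads. Both strands are plus, the sequences come from the GRCm38 reference with GENCODE M21 annotation, and the capital marks the only base that differs.
Tdg: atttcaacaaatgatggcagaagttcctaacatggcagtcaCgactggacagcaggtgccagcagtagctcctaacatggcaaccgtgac
Tdg-ps: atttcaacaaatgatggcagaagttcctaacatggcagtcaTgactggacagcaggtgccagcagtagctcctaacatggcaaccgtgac
In the control libraries 97.5% and 100% of the reads counted for *Tdg* were uniquely placed. How reads that match both copies were shared between them in the knockout libraries was not tested.

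*Neil1*, which removes oxidised pyrimidines, had the lowest fold change and also very few reads. It had 9 and 5 reads in the knockout, against 22 and 12 in the control, and the log2 fold change of -1.12 had an interval from -2.63 to 0.38 (adjusted p = 0.787, edgeR). It was -0.51 without control 1 and -0.45 on log2(TPM + 1). *Nthl1*, another glycosylase for oxidised pyrimidines, had 38 and 21 reads in the knockout, against 59 and 38 in the control, so that the genotypes met at 38 reads. Its log2 fold change was -0.58 (95% interval -1.71 to 0.55). *Neil2*, of the same enzyme family as *Neil1*, had 12 and 12 reads in the knockout, against 14 and 13 in the control, and its interval of -1.10 to 1.09 leaves a difference of over 2-fold in either direction possible at this depth.

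*Ogg1*, the glycosylase for 8-oxoguanine opposite cytosine, was the highest glycosylase in control testis. It had 23.9 and 19.7 CPM in the knockout, against 18.7 and 18.1 CPM in the control, with a log2 fold change of 0.25 (95% interval -0.12 to 0.61). *Mutyh*, which removes adenine opposite 8-oxoguanine, was at 2.62 and 1.93 CPM in the knockout, against 2.62 and 2.87 CPM in the control. In TPM the ratio of *Ogg1* to *Mutyh* was 9.80 and 10.9 in the knockout, against 7.63 and 6.74 in the control, so it was higher in both knockout libraries, a pair chosen with the values known. *Neil3*, which acts on single-stranded DNA and crosslinks, was at 4.15 and 4.07 CPM in the knockout, against 5.14 and 4.22 CPM in the control. *Mbd4*, which binds methylated CpG and removes thymine and uracil from mismatches, was at 10.02 and 10.1 CPM in the knockout, against 10.9 and 10.98 CPM in the control, a gap of -0.12 on the log2 scale with an interval of -0.49 to 0.25.

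*Ung* and *Smug1*, the uracil glycosylases, overlapped between the genotypes. *Ung* was at 9.78 and 8.65 CPM in the knockout, against 11.5 and 9.42 CPM in the control, and *Smug1* at 4.25 and 5.42 CPM, against 4.85 and 4.48 CPM. *Mpg*, which removes alkylated bases, was at 20.7 and 18.6 CPM in the knockout, against 19.9 and 20.8 CPM in the control. Only 65.5% and 67.3% of its reads were uniquely placed in the control libraries. *Mpg* lies on the plus strand and shares 1340 exon bases (35.7%) with *Nprl3* on the minus strand, and the log2 fold change of *Nprl3* itself was 0.05 (95% interval -0.32 to 0.42). The strand setting of the counting is not given in the sources used here, so the reads of such overlapping genes cannot be told apart.

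The AP endonucleases and the enzymes that clean blocked ends were 5 genes with a median of 0.03 for the log2 fold change. *Apex1*, the main AP endonuclease, was at 27.1 and 27.5 CPM in the knockout, against 30.7 and 29.4 CPM in the control. Its log2 fold change was -0.14 (95% interval -0.40 to 0.13, adjusted p = 0.872 by edgeR). Only 53.8% and 57.3% of the reads counted for *Apex1* were uniquely placed in the control libraries, and 877 of its 1422 exon bases (61.7%) overlap *Pip4p1* on the opposite strand, which had a log2 fold change of -0.03. *Apex2*, a second AP endonuclease with a stronger exonuclease activity, was the lowest of the 33 genes in control TPM, with 35 and 35 reads in the knockout against 35 and 42 in the control (log2 fold change 0.03, 95% interval -0.74 to 0.80).

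*Tdp1* and *Tdp2* free DNA ends from trapped topoisomerases I and II. *Tdp1* was at 102 and 102 CPM in the knockout, against 99.2 and 96.2 CPM in the control, and *Tdp2* at 24.4 and 21.1 CPM, against 25.0 and 27.6 CPM. Both were outside the control range, *Tdp1* by a log2 fold change of 0.06 and *Tdp2* by -0.21 (95% interval -0.54 to 0.12). *Aptx*, which removes AMP from failed ligations, was at 136 and 113 CPM in the knockout, against 119 and 113 CPM in the control.

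The 6 genes of gap filling and ligation had a median log2 fold change of -0.05. *Pcna* encodes the sliding clamp that holds polymerases, FEN1 and DNA ligase I on DNA. It had 1879 and 1680 reads in the knockout, against 2250 and 2589 in the control. In CPM these were 92.8 and 87.6 in the knockout, against 109 and 109 in the control, so the controls lay close together and both knockout libraries were below them. The log2 fold change was -0.28 (SE 0.09, 95% interval -0.51 to -0.04), or 82.5% of the control level, with an adjusted p of 0.535 by edgeR's quasi-likelihood test. *Pcna* has the processed pseudogene *Pcna-ps2*, which was not analysed here and with which it shares 19.1% of its 50-base words, and 100% of its reads were uniquely placed in both control libraries.

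*Fen1*, the flap endonuclease of long-patch BER, was the gap-filling gene in which the knockout libraries were least alike. It was measured at 53.3 CPM in the library with more reads and 33.6 CPM in the one with fewer reads of the knockout, against 54 and 54.4 CPM in the control. Only the library with fewer reads therefore stood clearly below the controls, the same library in which the elongating spermatid markers summed to 40709 TPM. The part of that library's cell content in the *Fen1* value was not tested. The fitted log2 fold change of *Fen1* was -0.32 (SE 0.22, 95% interval -0.86 to 0.23) with an adjusted p of 0.847 by edgeR. It was -0.02 without the knockout library with fewer reads and -0.69 without the one with more reads. An antisense gene, *Gm10143*, which was not analysed here, overlaps 1909 exon bases of *Fen1*.

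*Xrcc1*, the scaffold that PARP1 activity brings to breaks, was at 76.9 and 83.3 CPM in the knockout, against 83.6 and 82.8 CPM in the control. The log2 fold change was -0.05 with an interval of -0.29 to 0.18, which does not reach the value of *Parp1*. *Lig3*, the ligase bound to XRCC1, was at 295 and 267 CPM in the knockout, against 294 and 288 CPM in the control (log2 fold change -0.05, 95% interval -0.33 to 0.23). *Lig3* overlaps *Rffl* on the opposite strand over 1826 bases, and 91.1% and 90.9% of its reads were uniquely placed in the control libraries. The TPM ratio of *Xrcc1* to *Lig3* was 0.675 and 0.806 in the knockout, against 0.736 and 0.742 in the control, so the controls lay between the knockout libraries.

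*Polb*, the gap-filling polymerase of short-patch BER, was at 189 and 141 CPM in the knockout, against 158 and 151 CPM in the control. Here one knockout library lay above and the other below both controls, and the log2 fold change was 0.09 (95% interval -0.30 to 0.49). *Lig1*, the ligase of replication and long-patch BER, was at 31.8 and 36.2 CPM in the knockout, against 34.4 and 35.7 CPM in the control. Its log2 fold change was -0.04 (95% interval -0.33 to 0.25).

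**Figure D3:**
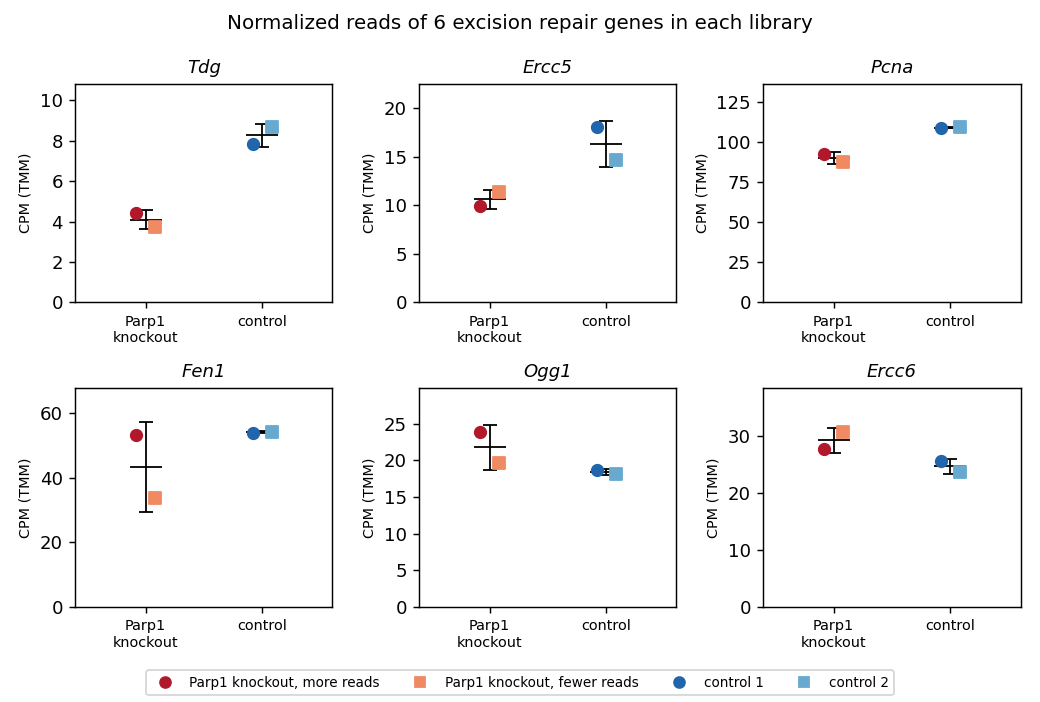
Reads of 6 repair genes in CPM after TMM scaling, with *Parp1* knockout left of control, a point for each library, and the mean with its SD as bars (n = 2 each). *Tdg*, *Ercc5* and *Pcna* were lower in both knockout libraries, *Fen1* was clearly lower in only the one with fewer reads, and *Ogg1* and *Ercc6* were higher in both.

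Of the NER genes, the 3 of damage recognition had a median of -0.18 for the log2 fold change. *Ddb1*, an adaptor of the CUL4 ubiquitin ligases and a subunit of the UV-damage sensor, was the highest of the 33 genes. It was at 446 and 463 CPM in the knockout, against 454 and 438 CPM in the control, and its log2 fold change was 0.03 (95% interval -0.26 to 0.31, adjusted p = 0.986 by edgeR). *Ddb2*, the subunit that binds the lesion, was at 9.14 and 7.77 CPM in the knockout, against 10.5 and 9.97 CPM in the control. Both knockout libraries were thus lower (log2 fold change -0.27, 95% interval -0.70 to 0.15). *Acp2* on the opposite strand overlaps 652 exon bases (23.8%) of *Ddb2*. The TPM ratio of *Ddb2* to *Ddb1* was 0.0396 and 0.0324 in the knockout, against 0.0446 and 0.0440 in the control. *Xpc*, the general lesion sensor, was at 8.39 and 9.54 CPM in the knockout, against 9.51 and 10.9 CPM in the control, with touching ranges.

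*Ercc6* and *Ercc8* encode CSB and CSA, which act at stalled RNA polymerase II. *Ercc6* was at 27.6 and 30.7 CPM in the knockout, against 25.6 and 23.6 CPM in the control, so both knockout libraries were above the controls. Its log2 fold change was 0.25 (SE 0.12, 95% interval -0.06 to 0.55), with an adjusted p of 0.751 by edgeR's quasi-likelihood test. *Ercc8* was at 44.7 and 37.4 CPM in the knockout, against 40.3 and 38.4 CPM in the control, where the knockout libraries lay on either side of the controls.

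*Ercc2* and *Ercc3*, the XPD and XPB helicases of TFIIH, and *Xpa*, which checks the opened lesion, had a median log2 fold change of -0.08. *Ercc2* was at 49.4 and 48.3 CPM in the knockout, against 53.7 and 55.4 CPM in the control. The log2 fold change of *Ercc2* was -0.16 (95% interval -0.39 to 0.08). Other genes overlap 42.7% of the exon bases of *Ercc2*, with 1025 bases shared with *Gm26852* on the opposite strand. *Ercc3* was at 65.7 and 54.6 CPM in the knockout, against 63.4 and 64.2 CPM in the control. *Xpa* was at 8 and 6.57 CPM in the knockout, against 6.31 and 6.84 CPM in the control. For both *Ercc3* and *Xpa* the knockout library with more reads was above the controls and the other was below or between them.

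*Ercc5* encodes XPG, the nuclease that makes the 3′ cut, and was the NER gene with the largest gap. It had 201 and 217 reads in the knockout, against 371 and 347 in the control. This was 9.93 and 11.3 CPM in the knockout, against 18 and 14.7 CPM in the control, and the genotypes did not overlap. Its log2 fold change was -0.62 (SE 0.17, 95% interval -1.05 to -0.19), which is 65.1% of the control level, with an adjusted p of 0.425 by edgeR's quasi-likelihood test. *Ercc5* lies at chr1:44147744-44181260 on the plus strand, and 100% of its reads were uniquely placed in both control libraries. *Parp1* lies on the same chromosome but is not a neighbour, at chr1:180568924-180601254. *Ercc1* and *Ercc4* together encode the nuclease of the 5′ cut. *Ercc4* was at 69.9 and 66.1 CPM in the knockout, against 71.5 and 71.4 CPM in the control (log2 fold change -0.07), and *Ercc1* at 25.0 and 23.4 CPM in the knockout, against 24.7 and 21.3 CPM in the control (0.07, 95% interval -0.25 to 0.40).

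The agreement of the knockout libraries differed between genes. The median absolute log2 difference between them over the 33 genes was 0.18, against 0.07 between the controls, and for all genes tested these were 0.27 and 0.11. No repair gene differed by more than 2-fold between the knockout libraries, as 8.01% of all genes did. Relative to the control mean *Tdg* was at -0.89 and -1.14 log2 units in the knockout library with more and the one with fewer reads, *Ercc5* at -0.71 and -0.52 and *Pcna* at -0.24 and -0.32. When 1 knockout library was left out, so that the lone one was taken to vary like the controls, 5 repair genes were called without the library with more reads (*Tdg*, *Fen1*, *Pcna* and *Ercc5* lower, *Ercc6* higher), which is 15.2% of them beside 23.9% of all genes. Without the library with fewer reads 6 were called (*Tdg*, *Pcna* and *Ercc5* lower, *Polb*, *Aptx* and *Ogg1* higher), which is 18.2% beside 17.0% of all genes. Neither share stands out from that of all genes, so the counts say nothing particular of repair genes. The share of all genes called in both of these fits is not given here. *Tdg*, *Pcna* and *Ercc5* are the repair genes named in both, and the fits are not independent, as they share both controls. Without either control library 0 were called.

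**Figure D4:**
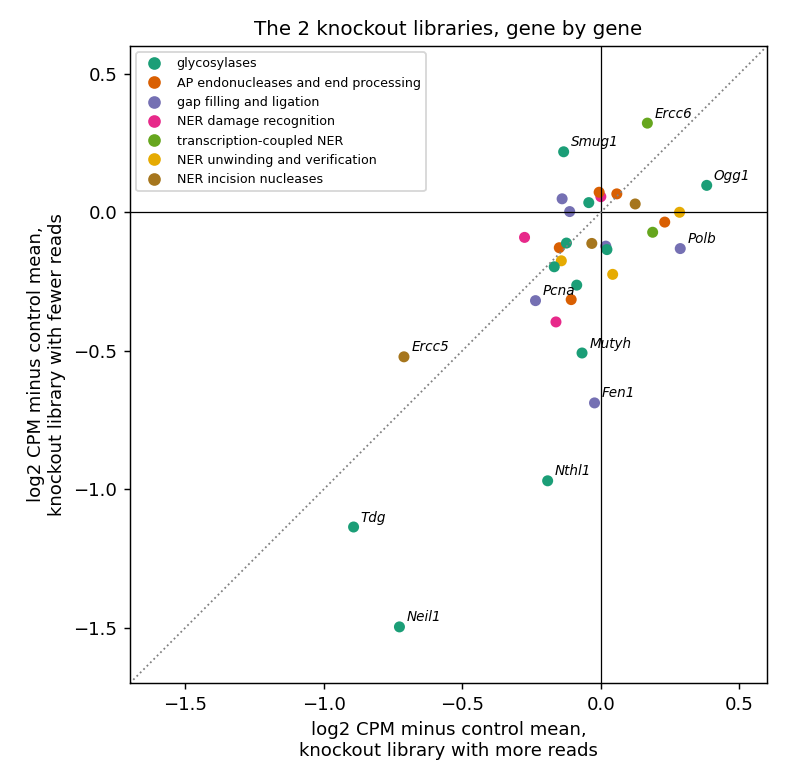
Log2 CPM of each repair gene minus the control mean in the knockout library with more reads (x) and in the one with fewer reads (y), coloured by role, with a dotted line where both are equal. *Tdg* and *Ercc5* lie near the line and below 0 on both axes, while *Fen1* is near 0 on the x axis and at -0.69 on the y axis.

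The 150 bases before the RefSeq start site of *Tdg* and *Ercc5* are shown because these genes had the largest gaps among those with an unadjusted p under 0.05. They are from RefSeq on GRCm38.p6, both on the plus strand, at chr10:82629688-82629837 for *Tdg* and chr1:44147594-44147743 for *Ercc5*, and capitals mark the motifs found. The gene start of *Tdg* in the counts is chr10:82629828, so the last bases of its window lie inside the gene as counted.
Tdg: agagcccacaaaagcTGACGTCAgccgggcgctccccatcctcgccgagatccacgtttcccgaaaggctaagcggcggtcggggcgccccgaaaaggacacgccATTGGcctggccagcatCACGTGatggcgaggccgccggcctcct
Ercc5: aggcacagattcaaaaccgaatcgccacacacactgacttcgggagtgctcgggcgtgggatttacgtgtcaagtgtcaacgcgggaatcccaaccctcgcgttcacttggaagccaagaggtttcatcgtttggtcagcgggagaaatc
Both strands were searched for the cAMP response element TGACGTCA, the GC box GGGCGG, the E box CACGTG and the CCAAT box CCAAT, which on the other strand reads ATTGG. The *Tdg* window holds the first at -135, a CCAAT box at -45 and an E box at -28, counted from the start site, and the *Ercc5* window holds none of the 4. Of 32851 windows of this length 1.36% hold TGACGTCA, 28.6% GGGCGG, 4.30% CACGTG and 24.5% CCAAT. Of the 33 repair genes 26 had a window, with 31 windows between them. Of the 31 windows 2 held TGACGTCA (*Aptx* and *Tdg*), 15 GGGCGG, 5 CACGTG and 11 CCAAT, the last in 10 genes. CpG dinucleotides numbered 17 in the *Tdg* and 12 in the *Ercc5* window, with a median of 11 over the windows of the repair genes and 4 over all windows. A match is a description of the sequence only, and the part of any of these motifs in the levels was not tested.

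A further list of 39 genes of the same pathways holds the PARPs, the other subunits of TFIIH, RPA, RFC, the replicative polymerases and the CUL4 ligase. Of these 1 passed the test, *Parp1*, which was lower, beside 0.0947% of all genes tested. An unadjusted p under 0.05 was seen for 7, beside 7.79% of all genes tested. *Parp1* is the targeted gene. Of the other 38 genes 0 passed and 6 had an unadjusted p under 0.05. *Hmgb1*, a chromatin protein with a role in long-patch BER, was at 60.8 and 52.9 CPM in the knockout, against 77.2 and 81.6 CPM in the control (log2 fold change -0.48, adjusted p = 0.298 by edgeR). The catalytic subunits of polymerases delta and epsilon were both below the controls in each knockout library. *Pold1* was at 17.6 and 20.7 CPM in the knockout, against 24.9 and 25.9 CPM in the control, and *Pole* at 36.6 and 27.8 CPM in the knockout, against 48.3 and 43.9 CPM in the control.

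The kinase subunit of TFIIH, *Cdk7*, was at 18.1 and 17.7 CPM in the knockout, against 21.9 and 22.3 CPM in the control. The genes with higher values were *Cul4b*, a cullin that works with DDB1, at 106 and 108 CPM in the knockout, against 81.4 and 81.2 CPM in the control, and *Rfc4*, a subunit of the clamp loader for PCNA, at 41.8 and 38.8 CPM in the knockout, against 33.2 and 33.6 CPM in the control. The smallest adjusted p among these genes other than *Parp1* was 0.294, for *Cul4b*, by edgeR's quasi-likelihood test. *Parp2*, another PARP activated by DNA breaks, was at 13.6 and 14.6 CPM in the knockout, against 12.8 and 13.9 CPM in the control (log2 fold change 0.08, 95% interval -0.27 to 0.44). *Parp3*, also activated by breaks, was at 1.63 and 9.02 CPM in the knockout, against 3.35 and 3.68 CPM in the control, and was the only gene of the list whose knockout libraries were over 2-fold apart. The median log2 fold change of the 39 genes was -0.03. The genotypes did not overlap for 21 (53.8%), 8 higher and 13 lower, beside 37.1% of all genes tested (17.9% higher and 19.2% lower). With *Parp1* left out these were 20 of 38 genes (52.6%).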

How the data were processed

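In CLC Genomics Workbench the authors trimmed and mapped the reads to mouse GRCm38 (mm10). The deposited values are whole-number counts of exon reads per gene, beside exon lengths in bases. Of 67 per-library columns 60 were not used, among them the unique reads and TPM of the knockout, whose heading, number included, is the same for both libraries. The deposited fold changes and p-values of the authors' own comparison were not used. For the counts of 4 libraries edgeR 4.0.16 (R 4.3.3) was used. Its filterByExpr (minimum count 10) kept 15834 genes, TMM set the scaling, and genotype was tested by the quasi-likelihood test with Benjamini-Hochberg adjustment over all of them (threshold 0.05). TPM was recomputed from counts and exon length. The common dispersion was 0.0235, a variation of 15.3% between libraries. The procedure was also run on simulated counts, with a result not reported here. These counts held no difference in cell content between libraries. Alternatives used limma 3.58.1, DESeq2 1.42.0, other scalings and filters, log2(TPM + 1) and log2(TPM + 0.1), a threshold of 0.1 and leaving out each library. Shared sequence was counted in GENCODE M21 (Python 3.11.15), and matplotlib 3.10.9 drew the figures.

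The members, lists and pairs were chosen with earlier results of these data known. Genes were given in full if they passed the threshold, had an unadjusted p under 0.05 without overlap, were among the 3 highest or lowest in control TPM or the 5 largest fold changes with a mean of at least 10 reads, differed by over 2-fold between knockout libraries, or had under 90% unique reads. Other repair genes are given by their CPM, and of the further list those with an unadjusted p under 0.05, with *Parp2*, *Parp3* and *Insl3* added after values were seen. P-values measure the spread between these libraries only.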

Additional observations from a re-analysis of the deposited data

How the results depend on the processing

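The count of 15 genes called among all genes became 193 with DESeq2, 374 with edgeR's likelihood ratio test, 41 with library totals only, 52 with no filter, 79 on log2(TPM + 1), 87 on log2(TPM + 0.1) and 53 at a threshold of 0.1. It lay between 8 and 3890 when 1 library was left out. The count of repair genes called was 1 with the likelihood ratio test (*Tdg*, adjusted p = 0.00781) and 0 under the other alternatives that kept all libraries, and lay between 0 and 6 when 1 library was left out. The count for the further list lay between 0 and 8, the number of repair genes without overlap between 21 and 27, the median log2 fold change between -0.12 and -0.070, and that of *Parp1* between -1.96 and -1.83 when 1 library was left out. With 1 library left out, the lone library was assumed to vary like the other genotype. A lone library falls outside the range of the other genotype more easily than a pair does. The share of all genes without overlap in these settings is not given here. The counts of repair genes without overlap therefore cannot be compared with the 16 found with all libraries. Where a knockout library was left out, the share of all genes called, given above, had also risen.

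Over the 11 alternatives that kept all libraries 32 of 33 repair genes kept their direction, and *Neil2* changed sign with limma voom (0.0079). Over all 15 alternatives 19 kept it. When 1 library was left out, the log2 fold change lay between -0.11 and 0.0040 for *Xrcc1*, -0.14 and 0.049 for *Lig1*, -0.12 and 0.019 for *Lig3*, -0.13 and 0.29 for *Polb*, -0.034 and 0.23 for *Aptx*, -0.0063 and 0.072 for *Apex2*, -0.13 and 0.22 for *Smug1*, -0.13 and 0.022 for *Mpg*, -0.16 and 0.15 for *Neil2*, -0.0013 and 0.28 for *Xpa*, -0.035 and 0.19 for *Ercc1*, -0.22 and 0.044 for *Ercc3*, -0.071 and 0.19 for *Ercc8*, and -0.0011 and 0.058 for *Ddb1*. The cause was not tested.

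No paired analysis was possible because both knockout columns carry the same heading with the same replicate number, 1. Unique reads were not compared between genotypes, since those of the knockout were not used here. By their standard errors *Neil1*, *Nthl1* and *Neil2* are the least certain values, with the log2 fold change of *Neil1* between -1.58 and -0.51 when 1 library was left out. *Neil1* was not tested with at least 10 counts in every library.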
